A study of Rattus norvegicus with 19 samples.

Results

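The samples described here are 5 T11 dorsal root ganglia, taken from rats operated to induce collateral sprouting, in which the transcript of the injury factor Atf3 was no higher than in unoperated rats. They were chosen by measurement: of 14 operated ganglia, those whose Atf3 level was at or under 8.5 on the log2 scale were taken, and these were day 7 replicates 3, 4 and 5 and day 14 replicates 2 and 7. They are 5 of the 19 arrays of the series and were set against the 5 naive ganglia, with the other 9 operated ganglia (4 at day 7 and 5 at day 14) given beside them. All animals were adult female Sprague-Dawley rats, and each array held RNA of a single ganglion from its own rat. In operated rats the dorsal and lateral cutaneous nerves of segments T9, T10, T12 and T13 were cut on one side and the T11 nerves were spared, so that T11 skin bordered denervated skin, and the ganglion was taken 7 or 14 days later. Naive rats had no operation, so incision, anaesthesia and denervation of the neighbouring skin cannot be told apart in any comparison with them. A ganglion is a mixture of neurons, glia, vessels and other cells, and fewer cells of a type and less RNA per cell cannot be told apart in such samples.

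Atf3 encodes a basic leucine zipper transcription factor that sensory neurons switch on when their own axon is cut. It acts with Jun and other partners, and the response it belongs to includes the neuropeptides Gal, Npy and Vip and the axon growth gene Sprr1a. Collateral sprouting is the growth of uninjured axons into neighbouring denervated skin, and nerve growth factor from that skin is known to drive it, so Atf3 is a usual check on whether a ganglion held axotomised neurons.

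Atf3 was read by 1 probe set. Its log2 level was 7.95, 7.28 and 7.88 in day 7 replicates 3, 4 and 5 and 8.33 and 8.12 in day 14 replicates 2 and 7. In naive replicates 1 to 5 it was 8.10, 8.17, 7.94, 8.44 and 8.17, and in the other operated ganglia it ran from 9.18 to 11.63 with a median of 9.92. The 5 chosen ganglia lay inside or below the naive range. The nearest values on each side of the threshold were 8.33 and 9.18, so a threshold of 9 gives the same 5 ganglia and one of 8.3 leaves 4. These levels were what chose the ganglia and are given without a test. The other genes of the injury response are treated alike, since several of them, such as Gal, are high where Atf3 is high. Not all are: Igfbp3 averaged 0.85 above naive in the chosen ganglia and 0.29 in the other operated ones.

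Sensory neuron markers were high in every chosen ganglion: the mean of Prph, Nefh, Calca, Scn10a, Isl1 and Pou4f1 was 11.43 to 11.56, against 11.41 to 11.48 in naive ganglia. Schwann cell markers averaged 8.70 to 9.17 against 9.0 to 9.75 and macrophage markers 7.86 to 8.15 against 7.91 to 8.19. Lymphocyte markers were near the low end of the scale in both groups, at 5.33 to 5.66 and 5.39 to 5.66. Skeletal muscle transcripts stood high on day 14 replicate 2 (list mean 7.26), on naive replicate 1 (8.64) and on day 7 replicate 7, which was not chosen (8.31), and elsewhere lay between 5.92 and 6.61. The excess of 3' over 5' signal in the control probe sets, which shows how far labelled RNA reached from its 3' end, was 3.28 ± 0.07 (SD, n = 5) in the chosen ganglia and 3.42 ± 0.18 (SD, n = 5) in naive ones, with the highest value, 3.69, on naive replicate 4. Over 7 such array measures, exact permutation tests (two-sided) gave unadjusted p from 0.0714 to 0.944 and adjusted p from 0.50 to 0.944. The smallest p that 5 against 5 allows is 0.0079, and after adjustment over 7 measures no single one could have passed 0.05 by itself, so these tests do not show that the groups were alike. The letters that begin the animal codes follow the day here: all 3 chosen day 7 rats carry AJ and both chosen day 14 rats AI, so day and code prefix cannot be told apart among them. Naive rats carry AJ or AK, so no naive rat carries AI and no chosen rat AK, and the labels do not say what the prefix is.

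Among the genes of the injury response, Sprr1a, Vip and Gal were lower in all 5 chosen ganglia than in any of the other 9, whereas Npy, Gadd45a and Igfbp3 overlapped the range of those 9. The promoters of Sprr1a and Vip are shown, each of which holds a motif of a kind that Atf3 and Jun are known to bind. Both genes stood above every naive array in all 9 others and below all of those 9 in the chosen ganglia. Gal and Csrp3 did so too, but they are not among the injury genes in which either motif was found. The windows run from 250 bases before to 50 after the start of the gene (RefSeq, GRCr8). Capitals mark TGACTCA or its reverse complement TGAGTCA, the binding motif of Jun and Fos factors, for Sprr1a (chr2:180752576-180752875, minus strand), and TGACGT, a shorter form of the cyclic AMP response element, for Vip (chr1:44470230-44470529, plus strand).
Sprr1a: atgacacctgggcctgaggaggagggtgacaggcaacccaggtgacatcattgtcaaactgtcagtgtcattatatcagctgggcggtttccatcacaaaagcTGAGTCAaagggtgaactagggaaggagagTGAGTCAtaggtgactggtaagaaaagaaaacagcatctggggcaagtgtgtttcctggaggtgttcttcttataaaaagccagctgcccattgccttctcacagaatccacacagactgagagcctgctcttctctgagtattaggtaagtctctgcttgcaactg
Vip: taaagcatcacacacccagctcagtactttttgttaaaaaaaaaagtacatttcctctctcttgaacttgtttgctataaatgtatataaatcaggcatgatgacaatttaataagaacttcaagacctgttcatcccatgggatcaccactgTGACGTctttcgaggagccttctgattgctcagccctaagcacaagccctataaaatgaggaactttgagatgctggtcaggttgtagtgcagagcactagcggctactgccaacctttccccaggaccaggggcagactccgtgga
The first motif is in 4.63% of 33469 RefSeq promoter windows of this length and in 3 of the 26 injury genes with a window (Nts, Plaur and Sprr1a). The second, searched as TGACGT and ACGTCA, is in 7.94% of all windows and in 2 of 26 genes (Il6 and Vip). A gene was counted if any of its windows matched, so counts of genes and shares of windows are not in the same unit. A match describes the letters and does not show binding.

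Sprr1a, which encodes a small proline-rich protein of regenerating axons, was 5.45, 5.55, 5.63, 5.61 and 5.65 in the chosen ganglia, listed as day 7 replicates 3, 4 and 5 and then day 14 replicates 2 and 7. Each later set of 5 values follows this order. Naive replicates 1 to 5 gave 5.44, 5.22, 5.62, 5.38 and 5.36, and the other operated ganglia 6.01 to 8.55. The chosen values therefore overlapped the naive ones and ended below the lowest of the other operated ganglia. Vip, a neuropeptide, was 5.82, 4.77, 5.97, 5.94 and 5.26 against 4.94, 5.08, 5.66, 5.30 and 5.12 in naive ganglia and 7.57 to 10.88 in the others. For Gal, the neuropeptide galanin, the chosen ganglia read 9.12, 9.11, 9.32, 9.47 and 9.29, the naive ones 8.97, 9.08, 9.32, 8.88 and 8.81 and the others 10.10 to 11.64. Both neuropeptides reached past the highest naive array in some of the chosen ganglia and stayed below all 9 others.

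Npy, which encodes neuropeptide Y, divided the chosen ganglia. It was 6.88, 8.99, 9.71, 7.58 and 7.39, against 7.32, 6.91, 7.66, 6.79 and 6.48 in naive ganglia and 9.35 to 12.38 in the other operated ones. Day 7 replicates 4 and 5 thus lay more than 1 log2 unit above the highest naive array although their Atf3 was 7.28 and 7.88, and day 7 replicate 5 was inside the range of the ganglia with high Atf3. Day 7 replicate 5 was also alone in Nts, the neuropeptide neurotensin, at 7.39 against 5.34 to 5.51 in the other chosen ganglia, 5.16 to 5.85 in naive ones and 4.96 to 6.16 in the others. Csrp3, a LIM protein of muscle that is also induced in axotomised neurons, read 6.37 on day 14 replicate 2, the array high in muscle transcripts, against 4.96 to 5.19 in the other chosen ganglia, 4.71 to 5.57 in naive ones and 7.16 to 10.47 in the others. Whether muscle RNA contributed to that value was not tested.

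**Figure D1:**
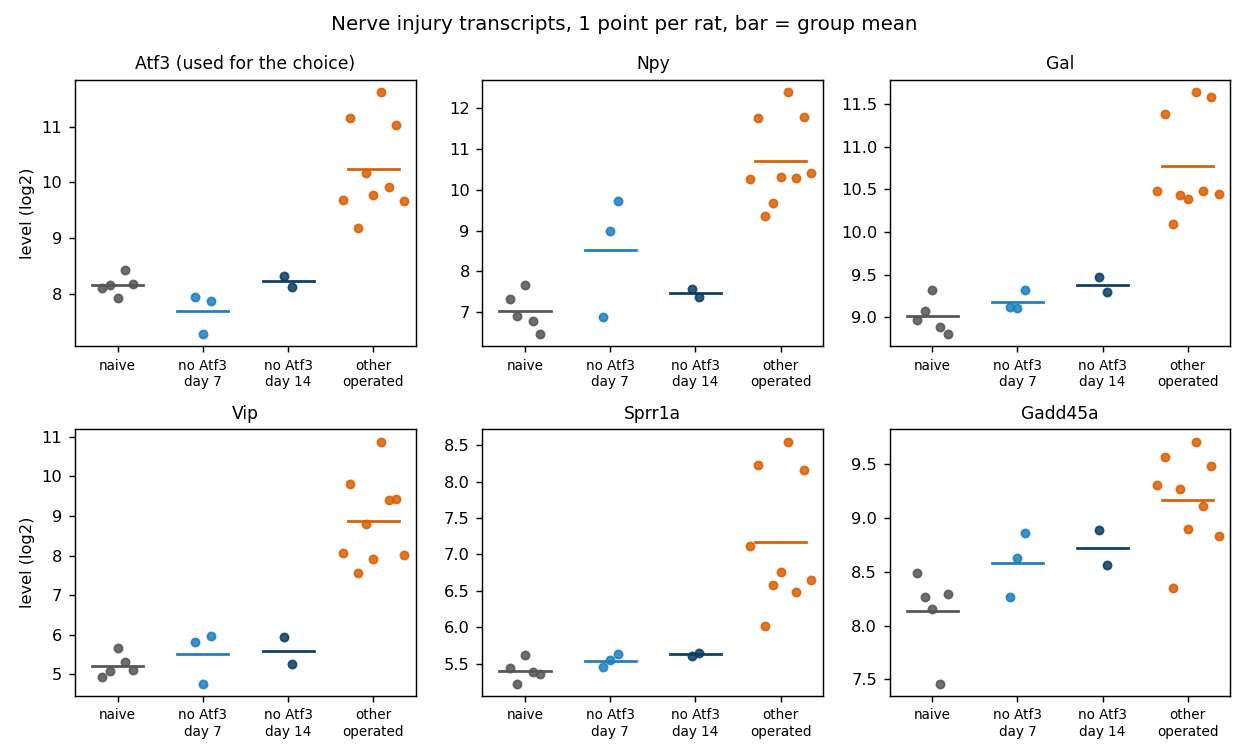
Log2 level of 6 nerve injury transcripts (vertical axes, each with its own range), with 1 point per rat for naive rats, Atf3-low operated rats at day 7 and day 14 ("no Atf3") and the other operated rats; bars are group means. Vip, Gal and Sprr1a of the Atf3-low rats lie below all other operated rats, whereas Npy reaches 8.99 and 9.71 in 2 of them.

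Some other injury genes stood above naive in most of the chosen ganglia. Gadd45a, a stress response gene, was 8.26, 8.63, 8.86, 8.89 and 8.56 in the chosen ganglia against 8.49, 8.26, 8.16, 7.46 and 8.29 in naive ones, so that 4 of 5 lay above the naive range, and the others ran from 8.35 to 9.71. Cacna2d1, the calcium channel subunit bound by gabapentin, averaged 0.37 above naive and 0.78 above naive in the other operated ganglia. Stat3, a transcription factor activated by cytokines, stood 0.39 above naive in the chosen and 0.30 in the other operated ganglia. The 3 probe sets of Jun stood 0.13, 0.36 and 0.29 above naive. Igfbp3, which binds insulin-like growth factors, was 9.05, 9.70, 9.06, 10.03 and 9.54 against 8.72, 9.02, 8.26, 8.17 and 8.96, so all 5 lay above the naive range, and the others lay between 8.42 and 9.72 with a median of 8.72. A second Igfbp3 probe set gave 0.55 with 3 of 5 above the naive range. Sox11 (0.09) and Csf1 (0.0022), which are induced in axotomised neurons, lay near naive. Over the 36 injury genes measured of 37 listed, 21 lay above the naive mean and the median difference was 0.06, against 29 and 0.29 in the other operated ganglia. Counted per rat, 4 to 13 of the 36 exceeded the highest naive array in the chosen ganglia and 14 to 26 in the others. Below the lowest naive array were 3 to 7 and 1 to 5. Any array passes the highest of 5 in some genes without a change, and this share over all probe sets was not counted. By more than 1 log2 unit, 0 to 2 of the 36 exceeded it in the chosen ganglia and 3 to 11 in the others. Over all 31042 probe sets, 1 to 26 and 7 to 69 did.

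The main comparison asked whether these ganglia differed from naive ones in any transcript. None of 31042 probe sets passed a limma adjusted p of 0.05 (0% called), and the smallest adjusted p was 0.238. At an unadjusted p under 0.05 there were 1028 higher (3.31%) and 1569 lower (5.05%), and the median standard error of a difference was 0.09. All 5 chosen ganglia lay above all naive ones in 226 probe sets (0.728%) and below all of them in 201 (0.648%). The day 7 and day 14 ganglia fitted separately gave 0 calls each (0% called), with smallest adjusted p of 0.0771 and 0.119. Leaving out single arrays gave 0 calls in all but 2 cases, naive replicates 1 and 2, with 1 call each, and leaving out the 3 muscle-high arrays gave 2. Grm8, a metabotropic glutamate receptor, stood at 0.68 (limma adjusted p = 0.016) and the kinase Src at -0.53 (adjusted p = 0.023) without the 3 muscle-high arrays. Src alone passed without naive replicate 1 (-0.59, adjusted p = 0.0096), and Bglap, which encodes osteocalcin, without naive replicate 2 (-0.68, adjusted p = 0.0495). With only naive and chosen arrays in the fit 1 probe set without a gene symbol passed at -0.84 (adjusted p = 0.015).

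Because Atf3 chose the ganglia, the comparison defined by the labels alone was run beside it: all 14 operated ganglia, both days weighted alike, against naive. There 6 of 31042 probe sets passed (0.0193%), 2 higher and 4 lower, and 3 carried a gene symbol. It shares the naive arrays and the 5 chosen ones with the comparison above, so it is no independent test of them. For 5 of the 6, every chosen ganglion lay outside the naive range. The count was 0 with the code prefix as a block, with that 3' excess as a covariate and without the 3 muscle-high arrays. It was 115 without naive replicate 1, 17 without naive replicate 2, 3 without naive replicate 3, 11 without day 7 replicate 4 and 10 without day 14 replicate 3.

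Copz1, a subunit of the COPI vesicle coat of the Golgi, rose in that comparison (limma adjusted p = 0.017). It was 7.04, 7.24, 7.35, 7.23 and 7.29 in the chosen ganglia against 6.77, 6.87, 6.86, 6.76 and 6.91 in naive ones and 6.99 to 7.33 in the others. All 14 operated ganglia were above all naive ones, with or without Atf3 induction, and the chosen ones stood 0.39 ± 0.07 (SE) above naive. The other Copz1 probe set, at a higher level, differed by 0.10 ± 0.07 (SE) and overlapped the naive range. Ccdc127, which encodes a little studied coiled-coil protein, fell in the labelled comparison (adjusted p = 0.018). Its levels were 8.61, 8.44, 8.55, 8.45 and 8.38 against 9.22, 9.26, 9.28, 8.91 and 9.47, and 7.99 to 8.83 in the others. Again no operated ganglion reached the naive range, and the chosen ones stood at -0.74 ± 0.15 (SE), a fold of 1.67, with 2 further probe sets at -0.58 and -0.24. Rpl37-ps2, annotated as a ribosomal protein pseudogene, fell as well (adjusted p = 0.018), with 6.86, 6.81, 6.85, 6.72 and 6.92 against 7.25, 7.21, 7.07, 7.28 and 7.27, and 6.59 to 7.04 in the others. As a pseudogene it may share signal with its parent gene. The 3 probe sets without a symbol stood at 0.45, -0.31 and -0.34 in the chosen ganglia, and in the last of these 3 of 5 chosen ganglia lay below the naive range.

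Bdnf, the neurotrophin that sensory neurons make in response to nerve growth factor, stood above naive in the ganglia without Atf3 induction. The levels were 8.51, 8.3006, 8.74, 8.76 and 8.54 against 8.32, 7.78, 8.04, 7.53 and 8.03 in naive ganglia, and 8.2975 to 9.11 in the other operated ones. The difference was 0.63 ± 0.16 (SE), a fold of 1.55 with a 95% interval of 0.31 to 0.96 log2 units, and 4 of 5 chosen ganglia lay above every naive one. Its limma adjusted p was 0.445 here and 0.054 over all operated ganglia, so it did not pass in either. A second Bdnf probe set, at a lower level, stood at 0.24 ± 0.08 (SE) with 2 of 5 above the naive range. The neurotrophin and GDNF family list, Bdnf included, stood on both sides of naive: 9 of 22 measured genes lay above it, with a median of -0.02, Gfra1 at 0.12, Gfra3 at -0.20 and Nrtn at -0.15. Ngfr, the shared neurotrophin receptor, stood at -0.05. At an unadjusted p under 0.05, 1 of the 22 was higher, which was Bdnf, and 0 lower, where the shares over 14217 genes read by 1 probe set each were 2.52% and 7.13%.

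Among the probe sets of smallest p, none past the threshold, those above naive included Grk3, Copz1, Samhd1, Kif16b, Klf12, Kcnj16 and Txnrd1, and these 7 stood at 0.30 to 0.39. Grk3, a kinase that desensitises G protein-coupled receptors, was 5.20, 5.23, 5.06, 5.17 and 5.18 against 4.73, 4.89, 4.88, 4.73 and 4.80, with all 5 above the naive range and an adjusted p of 0.238. The other operated ganglia ran from 4.81 to 5.12. Kcnj16, an inwardly rectifying potassium channel subunit of glia among other cells, was 5.78, 5.91, 5.87, 6.27 and 6.02 against 5.41, 5.8, 5.53, 5.64 and 5.67, and 5.50 to 5.73 in the others. So 4 of 5 chosen and 0 of 9 other operated ganglia exceeded the naive range. Klf12, a transcriptional repressor, stood 0.35 above naive with 5 of 5 above the naive range, against 0.06 and 4 of 9. The difference between chosen and other operated ganglia was not tested for these genes, since the chosen ganglia were defined by a measured transcript. Further probe sets of Kcnj16 and Klf12 stood at -0.02 and 0.10. Kif16b, an endosomal kinesin, stood at 0.37 in 1 probe set and between -0.04 and 0.11 in 4 others. Samhd1, which degrades deoxynucleotides, stood at 0.32 here and 0.27 in the other operated ganglia, and Txnrd1, thioredoxin reductase, at 0.30 and 0.33.

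The probe sets of smallest p below naive were Ccdc127, Mmp24, Agap3, Tyk2, Zfp513, Rab40c, Fam53a and Rpl37-ps2. Agap3, a GTPase-activating protein of synaptic membranes, was 9.43, 9.41, 9.43, 9.28 and 9.36 against 9.53, 9.85, 9.997, 10.23 and 9.64, so every chosen ganglion was below every naive one, and its adjusted p was 0.366. Its other 5 probe sets stood between -0.18 and 0.07. Mmp24, a membrane-bound metalloproteinase of neurons, stood at -0.36, the zinc finger gene Zfp513 at -0.54, the Janus kinase Tyk2 at -0.35, Rab40c, a Rab GTPase of a ubiquitin ligase, at -0.27 and Fam53a at -0.28. The other operated ganglia stood at -0.29, -0.37, -0.27, -0.19 and -0.18 in the same order. Naive replicate 4, which has the strongest 3' signal, gave the highest naive value for Agap3 (10.23), Zfp513 (8.81) and Tyk2 (8.99). With the 3' excess as a covariate the probe sets at an unadjusted p under 0.05 numbered 1304 in place of 2597, and with the code prefix as a block 1159. The part of RNA labelling and of the prefix in these differences was not tested further.

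**Figure D2:**
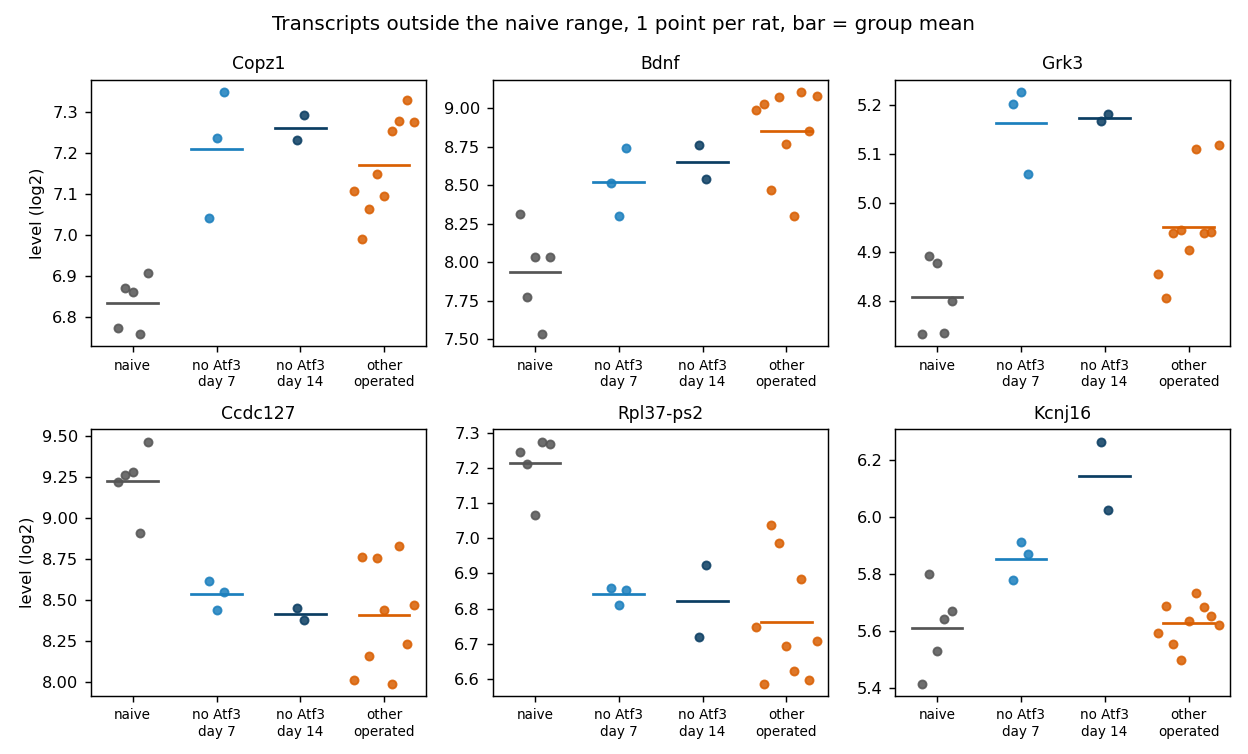
Log2 level of 6 transcripts (vertical axes, each with its own range), with 1 point per rat in the groups named on the horizontal axis; bars are group means. The Atf3-low rats lie outside the naive range for Copz1, Grk3, Ccdc127 and Rpl37-ps2, with 4 of 5 above it for Bdnf and Kcnj16.

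Gene lists of the sensory neuron and its growth had medians within 0.05 of naive in the chosen ganglia. Over 14217 genes, 47.4% lay above the naive mean and the median difference was -0.0076. Of 44 growth cone and axon growth genes, 25 lay above naive with a median of 0.03, and 4 were higher and 0 lower at an unadjusted p under 0.05, where 2.52% and 7.13% of all genes were. The 4 were Epha4, an ephrin receptor (0.29), Cntn1, an axonal adhesion protein (0.31), Kif5c, an axonal transport motor (0.33), and Plxna4, a semaphorin receptor (0.20). Gap43, the main growth cone protein, stood at -0.02 ± 0.06 (SE). Of 15 peptidergic nociceptor genes 10 lay above naive (median 0.04), among them the galanin receptor Galr1 at 0.46 and Calcb at 0.14, and the heat-gated channel Trpv1 stood at -0.13. At an unadjusted p under 0.05, 0 of the 15 were higher and 1 was lower, against the same shares of 2.52% and 7.13%. The main probe set of Calca, the CGRP gene, differed by 0.0020 ± 0.05 (SE), and a second, at a lower level, by 0.37. Tac1, the substance P gene, stood at 0.22 ± 0.18 (SE). Nonpeptidergic nociceptor genes had a median of 0.04 in 8 of 13 above naive, and 9 of 18 genes of large myelinated neurons lay above it.

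Primary cilium genes lay below naive in the chosen ganglia. Of 36 measured, 27 were below the naive mean, with a median of -0.10, and at an unadjusted p under 0.05 there were 5 lower and 1 higher, where 7.13% and 2.52% of all genes were. Bbs5, a component of the BBSome that carries receptors out of cilia, was 6.50, 6.68, 6.61, 6.56 and 6.47 against 7.04, 6.80, 6.71, 6.76 and 6.99, and 6.17 to 6.74 in the other operated ganglia. All 5 lay below the naive range. Bbs1 stood at -0.40, Tulp3, an adaptor for receptors entering cilia, at -0.20 and Ift43, of the intraflagellar transport machinery, at -0.18. For Bbs1 1 of 5 chosen ganglia lay below the naive range, and naive replicate 4 was the highest naive array (7.94). A second Bbs1 probe set stood at -0.05. Bbs4 differed by -0.49 in 1 probe set and 0.07 in the other, Kifap3, a kinesin-2 subunit, by -0.40, -0.11 and 0.20 in 3, and Ift70a1 by -0.27. The list median per ganglion was -0.06, -0.09, -0.03, -0.13 and -0.10, against -0.03 to 0.04 in naive ganglia. The list median over the comparison was -0.05 without day 14 replicate 2. In the other operated ganglia it was -0.12, so it lay below naive with and without Atf3 induction, against shared naive arrays. Per ganglion, those others ran from -0.23 to 0.05 with a median of -0.06, so not every one lay below naive.

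Of 28 vesicle coat and Golgi genes 20 lay above naive, with a median of 0.04. The list median per ganglion was -0.046, -0.001, 0.029, 0.121 and 0.013 against -0.031 to 0.029 in naive ganglia, so that day 14 replicate 2 lay above the naive range and day 7 replicate 3 below it. The coat subunits Cope and Copg1 stood at 0.17 and 0.11, and a second Copg1 probe set at -0.02. Golga2, a Golgi matrix protein, stood at -0.38. Of 23 synaptic vesicle genes 14 lay below naive, among them the fusion proteins Stx1a (-0.46) and Vamp2 (-0.22) and the granins Chga (-0.17) and Chgb (-0.13). Naive replicate 4 was again the highest naive array for Stx1a (8.53) and Vamp2 (10.62). Of 28 cyclic AMP genes 18 lay below naive. The coactivator Crtc1 stood at -0.41 in 1 probe set, for which naive replicate 4 was also the highest naive array (8.25). A second, dimmer Crtc1 probe set went the other way, at 0.19. Pde7b, a phosphodiesterase, stood at 0.25, where all 5 chosen ganglia lay above the naive range. Among antioxidant genes, 11 of 20 were above naive, with catalase (Cat) at -0.28 and below the naive range in all 5 ganglia.

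Immune and glial lists are given for the chosen and then the other operated ganglia, and the difference between them was not tested. Of 27 macrophage genes 13 lay above naive with a median of -0.0027, against 24 and 0.09 in the others. Of 21 MHC genes 9 lay above naive (median -0.05), against 18 and 0.18. Cd74, the class II invariant chain, stood at 0.12 and 0.70, and the chemokine gene Ccl2 at 0.29 and 0.83. Ccl2 was 8.98, 8.92, 9.38, 10.003 and 9.05 in the chosen ganglia against 8.70 to 9.27 in naive ones, so day 7 replicate 5 and day 14 replicate 2 lay above the naive range. Of 25 interferon response genes 8 lay above naive (median -0.07), against 13 and 0.01. At an unadjusted p under 0.05, 1 of the 25 was higher and 1 lower in the chosen ganglia, where 2.52% and 7.13% of all genes were. The higher one, Ifi44l, stood at 0.61 and 0.56. All 5 chosen ganglia lay above its naive range, as did 6 of the 9 others, while 2 of those 9 lay below it. Cytokine, chemokine and complement genes were above naive in 24 of 31 in both sets, with medians of 0.07 and 0.14. The alarmin Il33, made by glia and stromal cells, stood at 0.35 and 0.04 in the brighter of its 2 probe sets and at 0.47 and 0.21 in the other. The chemokine Cxcl11 stood at 0.23 and 0.29 and the complement inhibitor Cd59b at 0.20 and 0.21.

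Myelin genes stood below naive in 13 of 19 (median -0.03), against 17 of 19 (-0.18) in the other operated ganglia. Mag, a myelin adhesion protein, was 6.90, 6.24, 6.55, 6.40 and 6.60 against 6.49, 6.97, 7.02, 7.44 and 6.67, overlapping, and Sox10, the Schwann cell transcription factor, stood at -0.34. Satellite glia genes were above naive in 10 of 13 (median 0.07), against 11 of 13 (0.08). Fabp7, a lipid binding protein of satellite glia, was 11.29, 10.004, 10.52, 11.28 and 11.40 against 10.08 to 10.74, high in 3 of 5 ganglia. Gfap, the filament of reactive glia, stood at -0.13 in the chosen and 0.77 in the other operated ganglia. Cytoplasmic ribosomal protein genes were above naive in 11 of 27 and in 23 of 27 of the others.

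**Figure D3:**
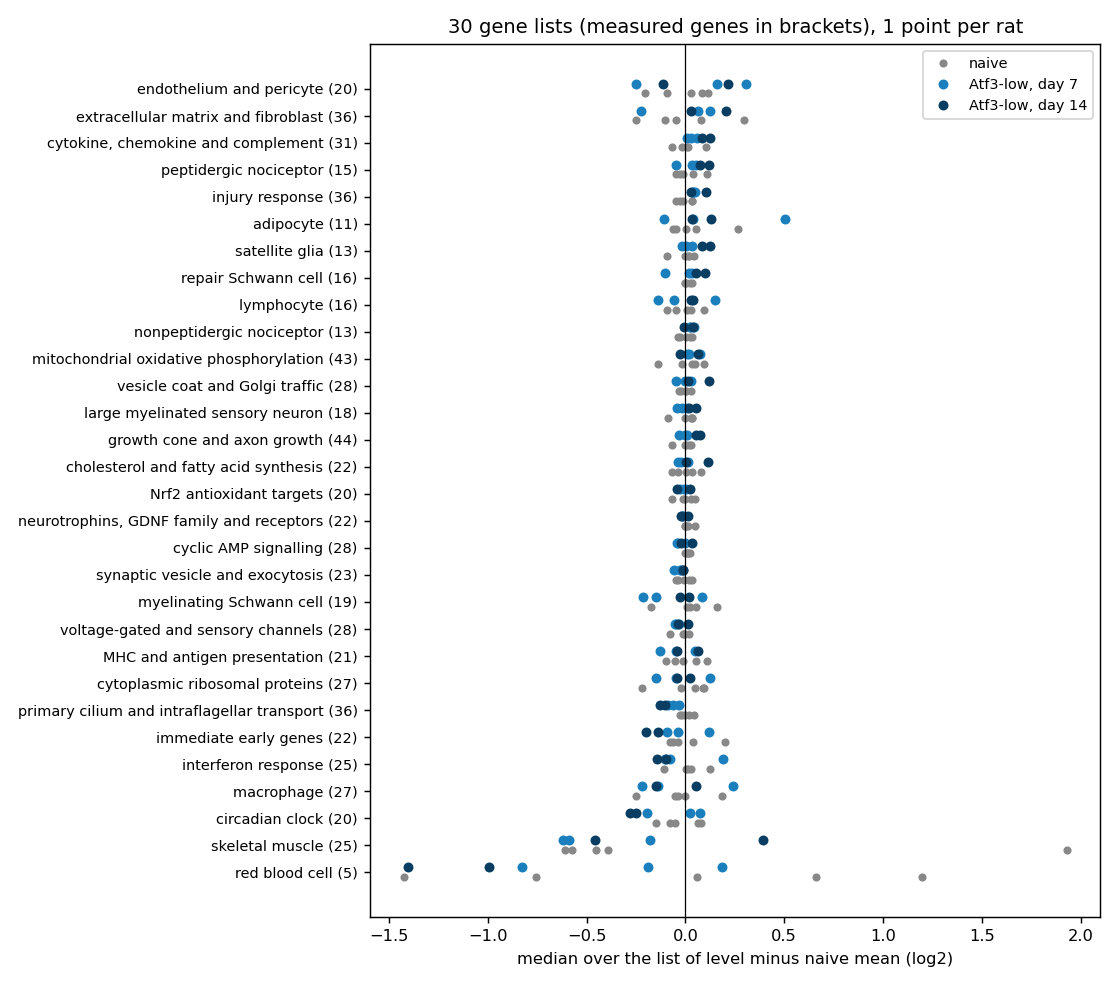
Median over each of 30 gene lists of the level minus the naive mean (log2, horizontal axis), with 1 point per rat: grey for naive, mid blue for Atf3-low at day 7 and dark blue for Atf3-low at day 14; the number of measured genes is in brackets. Cilium medians of the Atf3-low rats lie at -0.03 to -0.13, and red blood cell and muscle lists spread widely in both groups.

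The chosen ganglia differed from one another in groups of genes that did not follow the day. Circadian clock genes divided them. Day 7 replicate 3 and both day 14 ganglia were low in the output genes Dbp and Tef and the period genes Per1 and Per3. They were also low in the repressors Nr1d1 and Nr1d2. In the period gene Per2 both day 14 ganglia were low, whereas day 7 replicate 3 was inside the naive range. Day 7 replicates 4 and 5 were at or above the naive mean in most of these genes. The clock is a loop in which Clock and Bmal1 bind the E-box CACGTG to activate Per, Nr1d1 and Dbp, whose products then repress or modulate the loop, so these genes peak and fall over the day. The promoters of Nr1d1 and Tef are shown for their E-box and that of Per2 for TTATGTAA, a D-box bound by Dbp and Tef (RefSeq, GRCr8, 250 bases before to 50 after the start, both strands searched, motif in capitals). Nr1d1 lies at chr10:84229405-84229704 on the minus strand, the second of its 2 windows, the first of which has no E-box. Tef lies at chr7:115206577-115206876 on the plus strand and Per2 at chr9:99496944-99497243 on the minus strand.
Nr1d1: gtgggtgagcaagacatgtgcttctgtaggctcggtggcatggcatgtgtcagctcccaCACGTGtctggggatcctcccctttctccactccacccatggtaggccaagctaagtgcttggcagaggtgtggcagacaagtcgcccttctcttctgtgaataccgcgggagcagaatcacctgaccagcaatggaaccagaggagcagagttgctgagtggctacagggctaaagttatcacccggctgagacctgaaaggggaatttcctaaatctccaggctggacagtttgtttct
Tef: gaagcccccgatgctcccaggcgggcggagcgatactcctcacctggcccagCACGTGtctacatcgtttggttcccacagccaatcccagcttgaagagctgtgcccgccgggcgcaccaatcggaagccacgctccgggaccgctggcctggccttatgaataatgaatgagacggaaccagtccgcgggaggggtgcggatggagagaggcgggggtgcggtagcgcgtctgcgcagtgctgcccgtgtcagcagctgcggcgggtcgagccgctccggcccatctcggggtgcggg
Per2: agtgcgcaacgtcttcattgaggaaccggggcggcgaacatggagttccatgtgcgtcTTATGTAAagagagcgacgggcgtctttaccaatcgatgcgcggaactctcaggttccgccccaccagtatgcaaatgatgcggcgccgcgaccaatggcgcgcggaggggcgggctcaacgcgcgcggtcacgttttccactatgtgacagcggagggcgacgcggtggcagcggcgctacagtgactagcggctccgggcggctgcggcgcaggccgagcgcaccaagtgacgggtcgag
The E-box is in 6.42% of the 33469 windows and in 5 of 18 clock genes with a window (Bhlhe40, Bhlhe41, Ciart, Nr1d1 and Tef). Here too a gene was counted if any of its windows matched, unlike the share, which is of windows. The D-box, as TTATGTAA or TTACATAA, is in 0.893% of all windows and in 1 of the 18.

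Dbp, a transcription factor and a strongly cycling output of the clock, was 6.23, 8.37, 8.496, 5.95 and 6.36 against 8.02, 8.54, 8.40, 7.41 and 7.82 in naive ganglia and 6.55 to 8.54 in the others. The 3 low ganglia lay more than 1 log2 unit below the lowest naive one, and the other pair lay inside the naive range. Nr1d1, which encodes the repressor Rev-erb alpha, was 6.42, 8.56, 8.56, 6.60 and 7.52 against 8.15, 8.11, 8.03, 7.98 and 7.81, with 7.16 to 8.29 in the others. Per3, a period gene, was 5.72, 7.14, 7.18, 6.04 and 5.95 against 6.82, 6.94, 6.93, 6.93 and 7.39. The same 3 ganglia were below the naive range for each of these. Per2 was 7.39, 8.16, 8.05, 6.48 and 6.75 against 7.19 to 8.40, so that only the day 14 ganglia were below the naive range, and Tef was 9.26, 9.81, 9.68, 9.02 and 9.17 against 9.49 to 10.13. Bmal1, which cycles in antiphase to these genes, was 6.80, 6.24, 6.46, 7.20 and 6.88 against 6.01 to 6.86, highest in the ganglia in which Dbp was low. Further probe sets of Per2, Per3 and Nr1d2 with little signal differed by 0.10, -0.04 and -0.00036. Of 20 clock genes 12 lay below naive, with a median of -0.12, of -0.06 for the chosen day 7 and -0.25 for the chosen day 14 ganglia. The labels do not give the hour at which ganglia were taken, and its part in these values was not tested.

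Some transcripts of lymphatic and blood vessels and of platelets were high in day 7 replicates 4 and 5, the pair that was also high in Npy. These genes were named after their values were seen, and they are given without a test. Lyve1, a hyaluronan receptor of lymphatic endothelium and some macrophages, was 7.81, 10.58, 9.80, 9.39 and 8.73 against 8.69, 8.90, 9.29, 8.75 and 8.94. The chemokine Ccl21, made by lymphatic endothelium, was 8.49, 10.61, 10.29, 9.66 and 9.01 against 8.49 to 9.28, and Vwf, the clotting factor of endothelium and platelets, 8.18, 9.66, 9.72, 8.23 and 7.70 against 7.75 to 8.35. Both ganglia exceeded every naive one for all 3 genes, and day 7 replicate 3 was the lowest of the 10 arrays for Lyve1. Day 14 replicate 2 also exceeded every naive one for Lyve1 and Ccl21. So did 4 of the 9 other operated ganglia for Lyve1 (at most 9.82) and 6 of 9 for Ccl21 (at most 9.97). Tmem252 was 8.03 and 7.33 in the pair against 5.45 to 5.70 in the other chosen ganglia and 5.19 to 5.85 in naive ones. Pf4 and Tubb1, of platelets, were highest in day 7 replicate 5 (10.51 and 7.74, naive at most 8.65 and 6.36) among the chosen ganglia, while the other operated ganglia reached 11.34 and 9.30. Myh11, of smooth muscle, was highest in day 7 replicate 4 (9.74, naive at most 8.56, other operated at most 8.22). Prox1, the transcription factor that defines lymphatic endothelium, was 5.96 and 5.84 in the pair against 5.41 to 5.63 in naive ganglia, and a second, dimmer probe set was 5.03 and 4.95 against 4.94 to 5.04. Pdpn, podoplanin, was lower in the pair (10.26 and 10.39) than in the other chosen ganglia (10.44 to 10.51). Flt4, a lymphatic growth factor receptor, was 5.36 and 5.12 in the pair against 5.11 to 5.26 in naive ganglia, so that day 7 replicate 5 lay inside the naive range. Over the endothelium and pericyte list the median difference per ganglion was -0.25, 0.31, 0.16, 0.22 and -0.11, and over the adipocyte list -0.11, 0.51, 0.04, 0.13 and 0.03. Whether more vessel tissue came with the ganglion of these rats was not tested.

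**Figure D4:**
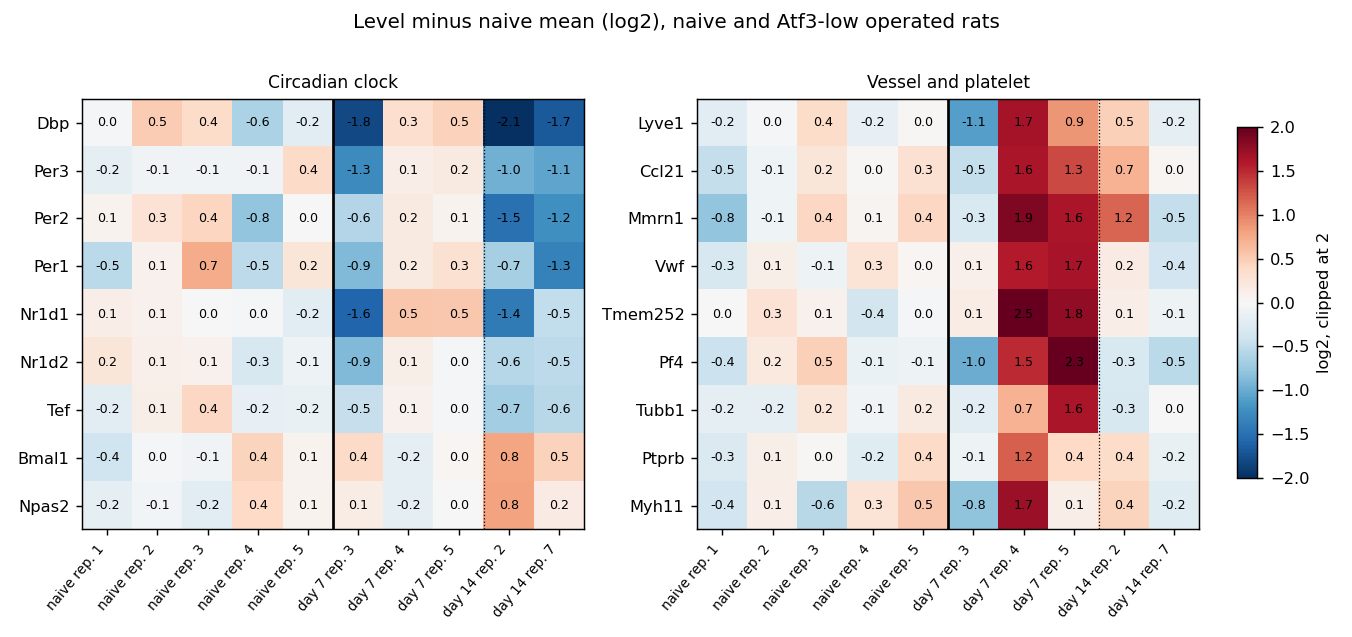
Level minus the naive mean (log2, colour and printed value, colour clipped at 2 in either direction) of clock genes (left) and of vessel and platelet genes (right), with 1 column per naive or Atf3-low operated rat. Dbp, Per3 and Nr1d1 are low in day 7 replicate 3 and both day 14 rats, and Lyve1, Ccl21 and Vwf are high in day 7 replicates 4 and 5.

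The number of probe sets more than 1 log2 unit above the highest naive array was 8, 26, 15, 4 and 1, against 7 to 69 in the others, and the number that far below the lowest naive array was 6, 11, 5, 6 and 8, against 2 to 23. Red blood cell transcripts varied in both groups: Hbb, a haemoglobin chain, was 11.25, 13.01, 12.80, 11.84 and 10.93 against 13.31, 10.96, 13.59, 11.24 and 12.84. The immediate early gene Fos was 8.19, 7.96, 9.96, 8.31 and 8.15 against 8.40 to 9.79, with day 7 replicate 5 above and the other 4 below the naive range.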

How the data were processed

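Single T11 ganglia of 19 rats were measured, 1 array each. The deposited values are log2 levels per probe set; RMA and limma are named in the submitters' processing notes, without versions. RNA was amplified in 2 rounds, per the labels' protocols. RMA gives all arrays 1 distribution, which would hide a shift of most transcripts. Of 31099 probe sets 57 controls were left out. Names came from the platform annotation through RefSeq (GRCr8) gene identifiers: 20826 probe sets had 1 symbol and 436 several (not named), for 14217 genes. The number of arrays limits the precision.

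All 19 arrays were fitted in limma 3.58.1 (R 4.3.3, lmFit and eBayes) as naive, chosen and other operated ganglia, with Benjamini-Hochberg adjustment over 31042 probe sets and a threshold of 0.05. Lists used the probe set of highest mean per gene and were described without a test (30 lists, 699 of 815 genes measured). Single array measures had exact permutation tests. The fits were tested on simulated data. The chosen ganglia, lists and tests were settled with earlier results of these data known. Named genes were those past the threshold, filled to 8 per direction by smallest p, up to 4 of each list by smallest p, and a fixed set of injury and sprouting genes. One gene that this rule names is not reported here. The vessel and platelet genes, Hbb, Bmal1, Nr1d1, Nr1d2, Per1 and Per2 were named after their values were seen. Alternatives covered filters, normalization, weights, blocks, covariates, thresholds and leaving out arrays. Python 3.11.15, numpy 2.4.6, scipy 1.17.1, pandas 2.3.3 and matplotlib 3.10.9 were used.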

Additional observations from a re-analysis of the deposited data

Results flagged for a closer look

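An extreme array was sought with Dixon's test in 118 sets of values and found in 10; chance alone marks about 1 in 20, here 5.9. Among the 5 chosen ganglia, day 7 replicate 5 stood apart in Nts (7.39) and was lowest in 1 probe set of Jun (7.29). Day 14 replicate 7 was highest in another Jun probe set (9.36) and in a dim one of Sez6l (4.80), and day 7 replicate 3 in Arg1 (7.62) and a dim probe set of Kif16b (4.67). Day 7 replicate 4 was lowest in Ecel1 (5.95), a protease of injured neurons that read 6.44 to 6.55 in the other chosen ganglia, and day 14 replicate 2 was highest in Csrp3 (6.37), which muscle also makes. Muscle transcripts stood apart on naive replicate 1 (8.64) and, among the other operated ganglia, on day 7 replicate 7 (8.31).

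Some transcripts lay on opposite sides of the naive mean in the chosen day 7 and day 14 ganglia, a difference that was not tested. Gfap was lower than naive at day 7 (mean -0.43) and higher at day 14 (0.31), and Col1a1 (-0.35 and 0.07), Csrp3 (-0.12 and 0.65) and the main probe set of Calca (-0.032 and 0.05) ran the same way. A probe set of Bbs4 (0.22 and -0.16) and a dim one of Gap43 (0.071 and -0.02) were higher at day 7 and lower at day 14.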

How the results depend on the processing

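The count of called probe sets for the chosen ganglia, 0, was 2 without the 3 arrays high in muscle transcripts, 1 with only naive and chosen arrays in the fit and 0 to 1 without single arrays. It was 0 to 4 for the chosen day 7 ganglia (4 without day 7 replicate 3) and 0 to 2 for those of day 14 (2 without naive replicate 1). For all operated ganglia it was 6, but 2 with 1 probe set per gene, 0 with the code prefix as a block, 0 with the 3' excess as a covariate, 0 without the muscle-high arrays, 47 at an adjusted p of 0.10 and 3 to 115 without single arrays. With the replicate block it was 0, and 0 for the chosen ganglia. Same-numbered ganglia come from different rats, and their deviations correlated with r from -0.26 to 0.33 (3 of 17 pairs over 0.1), so the numbers do not pair them. Probe sets with every chosen ganglion above every naive one, 226 in all, numbered 881 without the muscle-high arrays and 319 to 695 without single arrays; those below, 201 in all, numbered 866 and 287 to 689. These alternatives were chosen after seeing the data, and such counts grow with fewer arrays by construction. The muscle measure, -0.24 against naive, was 0.0403 without the muscle-high arrays, which hold it.

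The 24 probe sets tested singly kept their direction in 589 alternative values. Most were picked for a small p or a call in these same arrays, so a kept direction was nearly fixed by that choice. Of the values, 5 passed the threshold, those of Src, Grm8, Bglap and a probe set without a symbol given above. Of 8236 alternative values of transcripts described without a test, 101 moved by more than the spread between the chosen ganglia (31 with the code prefix block, 23 with the 3' excess), as did 26 of 750 list medians. Otherwise the cause of a change was not tested. The 5 naive arrays, the tie of day to prefix and the choice by a measured transcript limit every comparison, and dim probe sets such as that of Grk3 lie near the low end of the scale.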

Other observations

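Some transcripts differed widely between the chosen ganglia, and these were named after their values were seen. Mx2, an interferon-induced GTPase, was 8.18, 5.27, 5.16, 7.18 and 5.21 in the chosen ganglia, given as day 7 replicates 3, 4 and 5 and day 14 replicates 2 and 7, against 6.96 to 7.97 in naive ganglia and 5.06 to 8.86 in the other operated ones. A second Mx2 probe set ran the other way in the same rats, at 6.44, 8.53, 8.12, 7.35 and 7.96. RT1-Ba, an MHC class II chain, was 9.64, 10.50, 9.33, 7.56 and 6.21 in 1 probe set, against 5.73 to 7.72 in naive ganglia, and 7.98, 6.24, 8.26, 9.42 and 9.02 in another, against 8.37 to 9.04. The RT1-Bb probe set of highest mean was 5.67 in day 7 replicate 4 and 8.12 to 9.41 in the other chosen ganglia. Probe sets of 1 gene thus gave different orders of the same rats.

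Frzb, a secreted antagonist of Wnt proteins, was 9.14, 9.10, 8.19, 7.99 and 6.53 against 8.86 to 9.29 in naive ganglia and 7.88 to 8.65 in the other operated ones, so that 3 of the 5 lay below the naive range and day 14 replicate 7 was the lowest of all 19 arrays. Nrg1, which encodes neuregulin, was 7.78 and 8.36 in the chosen day 14 ganglia in 1 probe set and 9.41 to 10.02 in the chosen day 7 ganglia, against 9.26 to 10.35 in naive ones. Grhl3, an epithelial transcription factor also named after its values were seen, varied less, at 6.89, 7.30, 6.83, 7.13 and 7.30 against 8.55, 8.04, 7.98, 7.21 and 8.02. Its difference of -0.87 ± 0.23 (SE) was not past the limma threshold (adjusted p = 0.453).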
